A study of Mus musculus with 6 samples.

Results

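Imprinted genes are transcribed from 1 parental copy, and many of them set how fast cells grow and divide. Paternally expressed genes such as Igf2, which encodes a growth factor, tend to promote growth. Maternally expressed genes such as H19, a long noncoding RNA, and Igf2r, the receptor that carries IGF2 to the lysosome, tend to restrain it. In mouse marrow the H19-Igf2 and Dlk1-Meg3 domains have been linked with the quiescence of long-term stem cells. Described here are 10 imprinted growth-control genes of the 49315 genes counted, chosen by symbol: H19, Igf2r, Meg3 and Grb10 (maternally expressed), Igf2, Ndn, Peg3, Plagl1 and Mest (paternally expressed) and Gnas, a locus with transcripts of both kinds. The counts do not separate the parental alleles, so they measure the level of a gene and not its imprint.

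Bulk RNA-seq was available for 6 libraries from lineage-depleted mouse bone marrow. Long-term stem cells (LT-HSCs), short-term stem cells (ST-HSCs) and multipotent progenitors (MPPs) had been sorted from WT C57BL/6 mice and from mice lacking Ing4, a chromatin reader of the inhibitor of growth family. All were LSK cells, that is lineage-negative, Sca1-positive and Kit-positive, and were gated as CD48-. LT-HSCs were CD34- and CD150+, ST-HSCs carried both of these markers, and MPPs were CD34+ but CD150-. Marrow of several animals of a genotype was pooled before sorting, and each population of each genotype gave 1 library. The strain background of the ING4-/- animals is not given in the sources used here. Throughout, the 3 values of a genotype stand in the order LT-HSC, ST-HSC, MPP. No replicate of a population within a genotype existed, so the within-genotype ratios below carry exact 95% counting intervals and no test. Fewer expressing cells and less RNA per cell cannot be told apart in such bulk libraries.

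Total counts were 7839326 to 9363442 in WT and 35596876 to 39192588 in ING4-/-. Ing4 itself had 247, 162 and 247 counts in WT and 0, 24 and 76 in ING4-/-. It differed by -4.49 on the log2 scale (SE 1.56, adjusted p = 0.0373 in edgeR). The median of all 31001 genes tested was -6.85, and 56.7% of them were called lower. A loss of Ing4 beyond this general difference was not tested. Ing4 has 5320 exonic bases, and 34.9% of them are shared with another gene on the same strand. Of the 9 HSPC markers, 2 were called higher in ING4-/- and 7 were not called, beside 7.98% of all genes called higher. Cd34 had its highest count in the MPPs of each genotype. Cd48, whose protein was gated against, had 4300 counts in ING4-/- MPPs and 0 in ING4-/- LT-HSCs. In WT, 1431 olfactory and vomeronasal receptor genes, which marrow cells are not known to use, held 18.1 to 22.7 counts per kb of exon, against at most 0.0851 in ING4-/-. This density, taken over all exons, equals 22.6% to 33.4% of the WT counts. The WT counts of the members are therefore set beside the count that this density gives for the gene's length.

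The sequences of the mature microRNAs that lie inside H19 and Igf2 are shown because these members reached 100 counts in a single ING4-/- population each. Seeds (bases 2 to 8) are in capitals, and sequences are from RefSeq on GRCm38.p6. Mir675 lies in an exon of H19 on the minus strand of chromosome 7 (chr7:142577064-142577147).
miR-675-5p: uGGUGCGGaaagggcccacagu
miR-675-3p: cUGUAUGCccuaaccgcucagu
Mir483 lies within Igf2 on the same strand (chr7:142654924-142654996), outside its annotated exons.
miR-483-5p: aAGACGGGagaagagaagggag
miR-483-3p: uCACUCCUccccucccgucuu
No seed is shared among these 4. The rows of Mir675 and Mir483 held 0 counts in all 6 libraries, also where H19 or Igf2 was read. Reads over Mir675 may have been assigned to H19 or to neither, as the counting program is not given. Whether these libraries capture RNAs this short was not tested, so the zeros do not show that the microRNAs were absent.

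Ndn and Grb10, the members with counts over the WT background in every library, differ in the base composition of their start regions. For the single-exon gene Ndn (chr7:62346569-62350262, plus strand), the window runs from 250 bases before to 50 bases after its RefSeq start. That start lies downstream of the annotated start used for the counts, so the whole window falls inside the counted exon. The window is shown with CG pairs in capitals.
Ndn, chr7:62348027-62348326, plus strand: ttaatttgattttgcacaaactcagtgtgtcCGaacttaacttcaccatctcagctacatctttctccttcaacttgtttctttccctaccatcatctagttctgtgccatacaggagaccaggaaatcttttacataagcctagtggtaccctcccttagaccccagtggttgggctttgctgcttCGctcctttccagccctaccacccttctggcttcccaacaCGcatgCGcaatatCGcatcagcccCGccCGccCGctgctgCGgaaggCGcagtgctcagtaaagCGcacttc
It held 11 CG pairs, and 41.4% of 32851 such windows held as many or more. Grb10 (chr11:11930508-12038683, minus strand) has 2 windows, and the upstream one is shown.
Grb10, chr11:12037371-12037670, minus strand: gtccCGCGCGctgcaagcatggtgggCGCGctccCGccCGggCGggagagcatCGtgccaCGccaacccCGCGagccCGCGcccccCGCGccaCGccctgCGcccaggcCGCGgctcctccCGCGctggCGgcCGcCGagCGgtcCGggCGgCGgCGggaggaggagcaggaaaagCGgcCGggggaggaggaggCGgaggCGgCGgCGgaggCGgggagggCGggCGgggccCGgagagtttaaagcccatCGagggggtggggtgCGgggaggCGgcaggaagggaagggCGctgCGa
It held 45 CG pairs, a number reached by 1.93% of windows. The downstream Grb10 window held 9, and 45.8% of windows held as many. CG pairs were counted in these 300 letters, and methylation was not measured.

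The populations of a genotype were compared first. Ndn, which encodes necdin, a growth suppressor of the MAGE family, had its highest count in the LT-HSCs of both genotypes. The WT libraries held 486, 248 and 270 Ndn counts, where the background for its length is 82.7, 84.0 and 66.8. The ING4-/- libraries held 9903, 2102 and 2988 counts. The LT-HSC library stood above the other two in each genotype. In WT the log2 ratio was -0.95 (-1.17 to -0.73) for MPPs against LT-HSCs and -0.94 (-1.17 to -0.72) for ST-HSCs against LT-HSCs. In ING4-/- the ratios were -1.85 (-1.90 to -1.79) and -2.25 (-2.32 to -2.18). With the background subtracted, the WT ratios became -1.09 and -1.27. ST-HSCs and MPPs of WT differed by less than counting error (log2 ratio -0.01, -0.27 to 0.24), while in ING4-/- MPPs held more than ST-HSCs (0.41, 0.33 to 0.49). Whether these ratios differ between the genotypes could not be tested, since a fit with both terms and their interaction leaves no residual degrees of freedom.

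**Figure D1:**
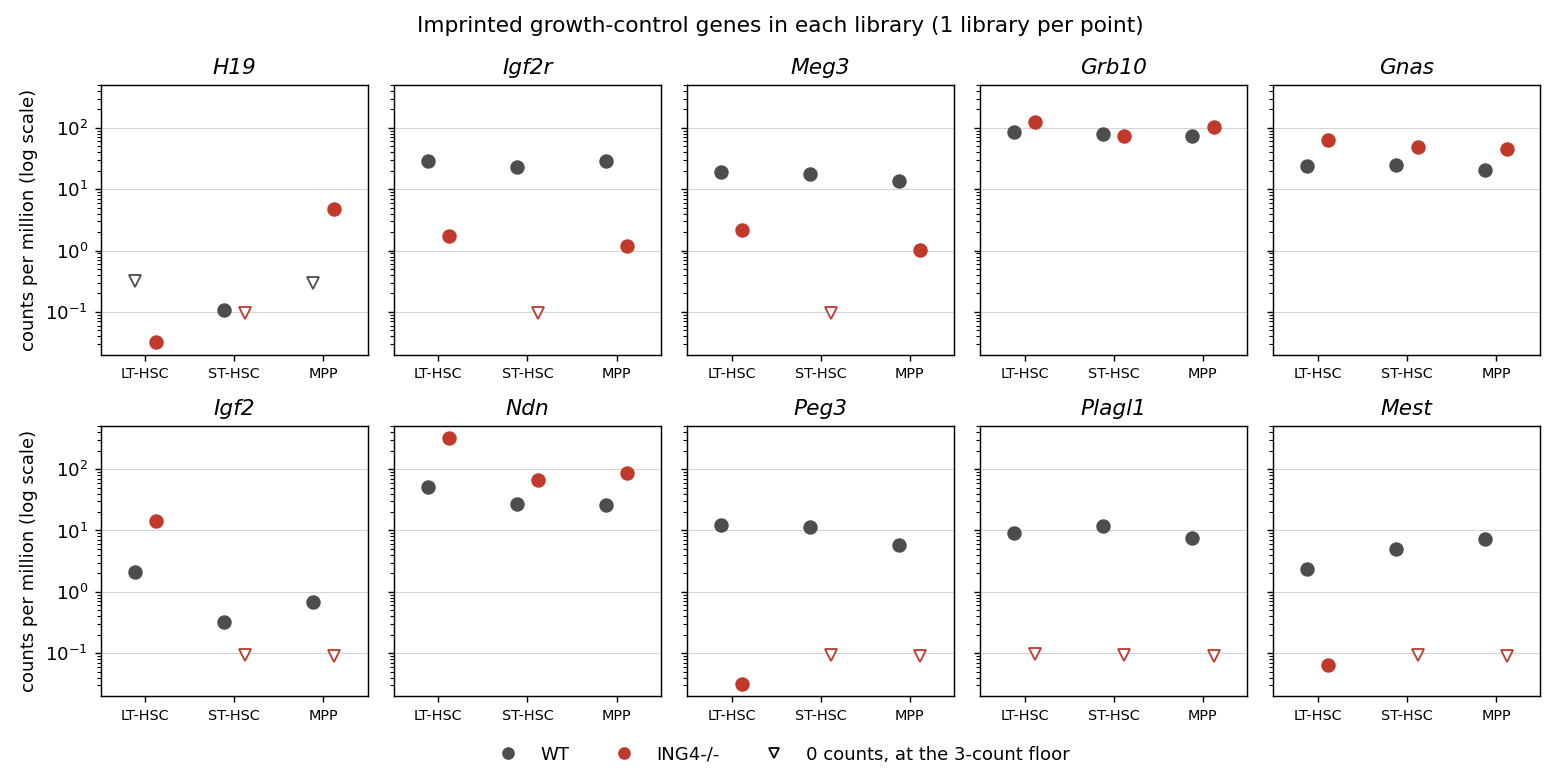
CPM (counts scaled with TMM to the size of the library, log axis) of the 10 genes in each library, with WT in grey and ING4-/- in red. Open triangles mark libraries with 0 counts, drawn at the level of 3 counts. Ndn, Grb10 and Gnas were read in all 6 libraries, and Igf2 (449 counts) and H19 (162 counts) stood out in a single ING4-/- library each.

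Igf2 and H19, neighbours that share enhancers and are expressed from opposite parental copies, were read in different ING4-/- populations. Igf2 (chr7:142650766-142666816, minus strand) had 449 counts in ING4-/- LT-HSCs and 0 in both other ING4-/- libraries. Set against a floor of 3 counts per library, the LT-HSC level was at least 151.2-fold higher than in ST-HSCs and at least 162.2-fold higher than in MPPs. In WT it had 20, 3 and 7 counts, below the background of 128.1, 130.1 and 103.5 for its length in each library. WT LT-HSCs were the highest of the 3 as well (log2 ratio of MPPs to LT-HSCs -1.62, -3.10 to -0.32), at a level where no WT expression above the background was detectable. The exonic GC content of Igf2 was 55.8%, above the 34.1% to 46.7% that spans the 5th to 95th percentile of the receptor genes, so this background is less sure for it. H19 (chr7:142575529-142578143, minus strand) had 1, 0 and 162 counts in ING4-/- and 0, 1 and 0 in WT, where the background for its length is 42.9 to 53.9. The MPP level in ING4-/- was 149.5-fold that of LT-HSCs (26.5 to 5940) and at least 50.3-fold higher than that of ST-HSCs.

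Counts present in 1 ING4-/- library and absent from another were common in these data. Some ING4-/- library reached 100 counts for 12593 genes, and 19.6% of them had at most 1 count in another ING4-/- library, against 0.176% in WT. The share was 64.2% for genes whose highest count was from 100 to 300, 32.5% from 300 to 1000, 6.46% from 1000 to 3000 and 0.418% above. H19 falls in the first of these ranges and Igf2 in the second. They were 2 of the 5 members that reached 100 counts. These shares count genes with at least 1 library at 0 or 1, whereas H19 and Igf2 were at 0 or 1 in both other libraries, which held for 979 of the 12593 genes (7.77%).

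Summed over 6 endothelial markers, the level was also highest in the LT-HSC library of each genotype, though this did not hold for each marker. Their summed level in ING4-/- was 431.0, 150.0 and 52.5 CPM, with 0, 1 and 3 of 6 markers at 3 counts or fewer. In WT it was 275.2, 194.1 and 183.4 CPM. Plvap, a protein of endothelial fenestrae, had 2224, 152 and 0 counts in ING4-/-, and Cldn5, a tight junction protein, had 1060, 108 and 0. Cdh5, which defines endothelium, had 39, 150 and 0, and was thus highest in ST-HSCs. Vwf, which LT-HSCs themselves can express, had 7704, 3123 and 329, out of summed marker counts of 13488, 4743 and 1780. For the remaining markers, Emcn and Kdr, the fit over both genotypes gave -0.50 (SE 0.547) and -0.15 (SE 1.97) for MPPs against LT-HSCs. The part of endothelial RNA in the Ndn, Igf2 and Dlk1 values was not tested. Stromal markers did not follow this order, with 34.6, 23.8 and 51.7 CPM in ING4-/- and 6, 6 and 4 of 10 markers at 3 counts or fewer.

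Grb10, an adaptor that dampens insulin and IGF1 receptor signalling, was read at similar levels in all 6 libraries. It had 815, 738 and 757 counts in WT, 3.57 to 4.60 times the background, and 3836, 2362 and 3443 in ING4-/-. The WT ratios to LT-HSCs were -0.21 (-0.35 to -0.06) for MPPs and -0.11 (-0.26 to 0.03) for ST-HSCs on the log2 scale. In ING4-/- they were -0.27 (-0.34 to -0.21) and -0.71 (-0.79 to -0.64), so that ST-HSCs had the lowest level there. Gnas (chr2:174284320-174346744, plus strand), which encodes the stimulatory G protein subunit and several other products, had 228, 233 and 212 counts in WT, at 0.911, 0.916 and 1.05 times the background. It had 1975, 1522 and 1523 counts in ING4-/-, highest in LT-HSCs (log2 ratio of MPPs -0.49, -0.59 to -0.39). Of its exonic bases, 22.0% overlap genes on the opposite strand, and the strand setting of the counting is not given in the sources used here.

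Igf2r (chr17:12682406-12769664, minus strand) had 274, 213 and 295 counts in WT, at 1.30, 0.993 and 1.73 times the background, and 55, 0 and 40 in ING4-/-. Meg3 (chr12:109541001-109571726, plus strand), a noncoding RNA with tumour suppressor properties, had 178, 165 and 138 counts in WT, at 0.401 to 0.440 times the background, and 69, 0 and 35 in ING4-/-. Both had 0 counts in the ING4-/- ST-HSC library, which allows up to 0.0949 CPM. Peg3 (chr7:6703892-6730431, minus strand), a zinc finger protein of the apoptosis and growth pathways, had 117, 104 and 60 counts in WT and 1, 0 and 0 in ING4-/-. Plagl1 (chr10:13060504-13131694, plus strand), a zinc finger transcription factor that regulates other imprinted genes, had 86, 108 and 76 in WT and 0 in each ING4-/- library. Mest (chr6:30723547-30748465, plus strand), a hydrolase-like protein of mesoderm, had 22, 46 and 75 in WT and 2, 0 and 0 in ING4-/-. The WT counts of these 3 were 0.249 to 1.05 times the background. Mest was the member whose WT counts were lowest in LT-HSCs (log2 ratio of MPPs 1.67, 0.97 to 2.42), and 23.1% of its exonic bases overlap Copg2 on the opposite strand.

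**Figure D2:**
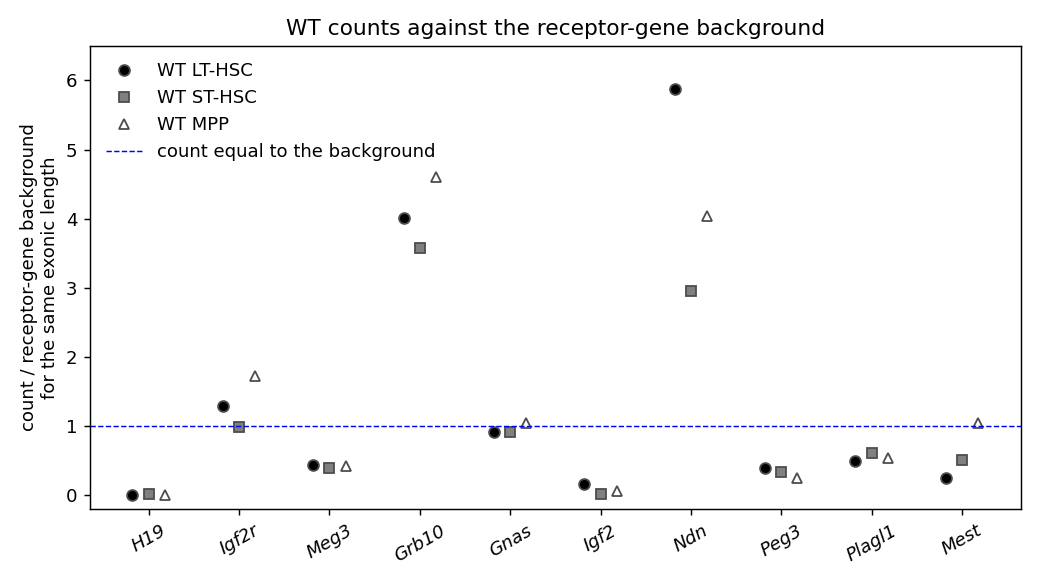
Count of each gene in the 3 WT libraries divided by the count that the density on olfactory and vomeronasal receptor genes gives for the same exonic length (linear axis). The dashed line marks a count equal to this background. Ndn (2.95 to 5.88) and Grb10 (3.57 to 4.60) lie above the line in all 3 libraries, and the other 8 genes lie at 1.73 or lower.

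The exonic GC content of 8 members lay above the receptor genes' 95th percentile of 46.7%, from 46.9% for Peg3 and 47.4% for Mest to 57.8% for Gnas, with Grb10 at 48.5%. Those of Ndn (44.5%) and Plagl1 (46.4%) lay within the range. The multiples of the background are less sure for the 8. Among receptor genes the density itself was uneven, with a 95th percentile of 77.9, 64.8 and 51.1 counts per kb in WT. Its median was 14.8, 17.3 and 14.2, under the 22.4, 22.7 and 18.1 used as the background. Multiples of the background would thus be larger against the median. Ndn and Grb10 exceeded this percentile in each WT library, and the other 8 genes did so in none. Per kb of exon, mean levels in WT were 9.42 ± 3.85 CPM for Ndn and 8.79 ± 0.637 for Grb10 (SD, n = 3 populations), which did not differ beyond their spread. In ING4-/- the order was Ndn (42.5 ± 37.5), Grb10 (11.0 ± 2.64) and Gnas (4.65 ± 0.868), with the other 7 at 0.836 or lower. The ranges of Ndn (17.99 to 85.7), Grb10 (8.22 to 13.5) and Gnas (4.01 to 5.64) in ING4-/- did not overlap. The exonic length counted for Gnas covers alternative transcripts, which lowers its level per kb.

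Members lower outside LT-HSCs were counted next. Among the 7 members with at least 10 counts in ING4-/- MPPs or LT-HSCs, 3 (Igf2, Meg3 and Ndn) were lower in MPPs by over 2-fold and 1 (H19) was higher. Of all genes passing the same minimum, 18.8% were lower. Among 6 such members in ING4-/- ST-HSCs against LT-HSCs, 4 (Igf2, Igf2r, Meg3 and Ndn) were lower by over 2-fold, beside 21.7% of all genes. In WT the counts were 2 of 9 for MPPs (Igf2 and Peg3, beside 17.0% of all genes) and 1 of 9 for ST-HSCs (Igf2, beside 14.7%), while Mest was higher by over 2-fold in both. The WT counts of Igf2 and Peg3 were below the background, and those of Mest were 0.249 to 1.05 times it. The share of all genes higher by over 2-fold was not taken, so none stands beside H19 and Mest. These counts rest on 1 library per side, and several of the members had few counts.

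To ask whether any population difference held across both genotypes, all 6 libraries were fitted with genotype and population as terms, which gives 2 libraries per population. No member was called for MPPs against LT-HSCs, for ST-HSCs against LT-HSCs or for MPPs against ST-HSCs in edgeR. Of the 31001 genes tested, 0% was called in each of these comparisons, so the fit called nothing anywhere. An unadjusted edgeR p under 0.05 was found for 561, 616 and 187 genes, each a share of the tested genes below 0.05. The fitted log2 fold change of Ndn was -1.44 for MPPs against LT-HSCs (SE 0.402, unadjusted p = 0.0143, edgeR adjusted p = 0.999983) and -1.62 for ST-HSCs (SE 0.407, unadjusted p = 0.00955, adjusted p = 1), the direction being the same in both genotypes. Igf2 differed by -7.57 (SE 4.08) and -8.47 (SE 4.08). Its value rests on the 449 counts of the ING4-/- LT-HSC library, without which it was not tested, and the MPP value ranged from -11.12 without the WT LT-HSC library to -3.94 without the ING4-/- MPP library. DESeq2 called 308, 176 and 0 genes in the 3 comparisons. Igf2 was among them for MPPs (adjusted p = 0.0376) and for ST-HSCs (adjusted p = 0.0377) against LT-HSCs, and no other member was. Fitted differences for MPPs and ST-HSCs against LT-HSCs were -0.24 and -0.41 for Grb10 and -0.35 and -0.17 for Gnas, each within 2 SE of 0.

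**Figure D3:**
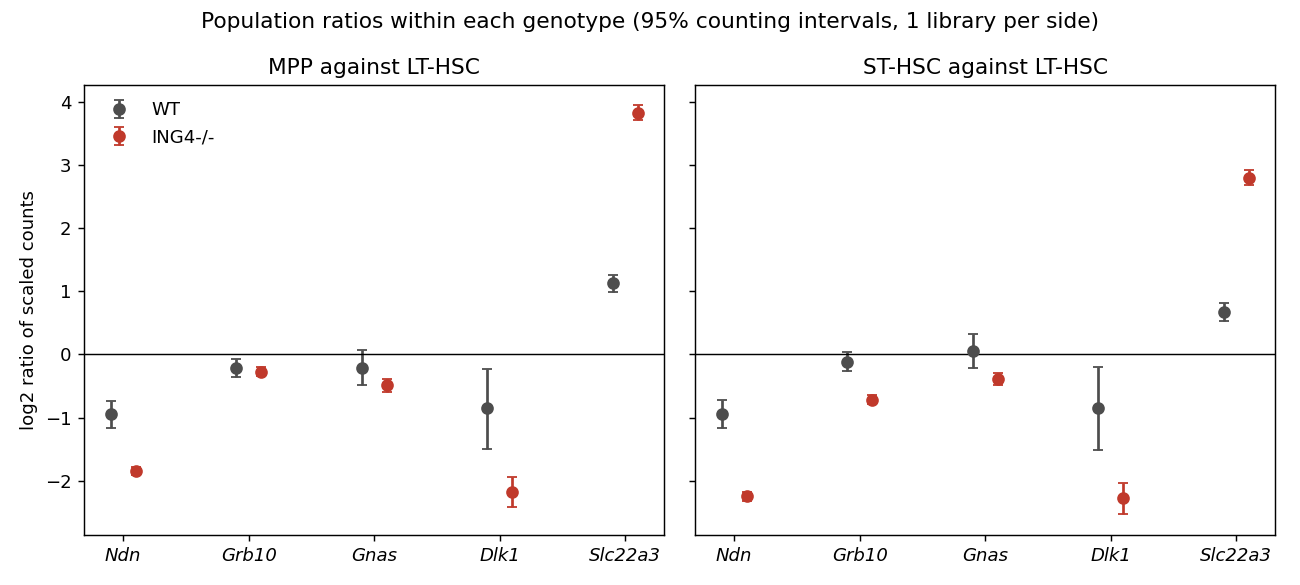
Log2 ratio of MPPs (left) and ST-HSCs (right) to LT-HSCs within WT (grey) and within ING4-/- (red), each point from 2 libraries with its 95% counting interval. Ndn and Dlk1 lie below 0 in both genotypes and both panels, and Slc22a3 lies above 0 in all 4 cases.

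Genes that share a domain with a member gave further values from a list of 55 other imprinted genes. Apart from Dlk1, the WT counts of these neighbours are given without the receptor-gene background. Low ING4-/- counts beside them are therefore not read as lost expression. Dlk1, a paternally expressed NOTCH-like ligand beside Meg3, had 59, 32 and 35 counts in WT and 795, 165 and 190 in ING4-/-. Its log2 ratio in ING4-/- was -2.18 (-2.42 to -1.95) for MPPs and -2.28 (-2.53 to -2.04) for ST-HSCs against LT-HSCs, an order like that of Ndn. In WT it was -0.86 (-1.50 to -0.23) and -0.85 (-1.52 to -0.21), from counts under the background. Rian and Mirg, noncoding RNAs transcribed like Meg3 from the maternal copy, had 617, 1019 and 820 and 154, 112 and 68 counts in WT. In ING4-/- they had 54, 1 and 0 and 1, 11 and 2 counts. Rian has 17475 exonic bases, near the 18089 of Meg3, and held more counts than Meg3 in each WT library. Rtl1 had 10, 25 and 24 counts in WT and 0 in every ING4-/- library.

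Slc22a3, an organic cation transporter in the Igf2r domain, took the opposite course to Ndn. It had 691, 1075 and 1620 counts in WT and 673, 4750 and 10424 in ING4-/-. Its log2 ratio of MPPs to LT-HSCs was 1.13 (0.998 to 1.26) in WT and 3.84 (3.72 to 3.95) in ING4-/-. The fit over both genotypes gave 2.35 (SE 0.717, unadjusted p = 0.0202, edgeR adjusted p = 0.999983). Airn, the noncoding RNA that silences the paternal Igf2r copy, had 164, 140 and 116 counts in WT and 0 in ING4-/-, and Slc22a2 had 76, 59 and 75 in WT and 0 in ING4-/-. In this domain Slc22a3 thus had the highest counts and Airn none in ING4-/-. Whether the WT counts of Airn and Slc22a2 exceed the receptor-gene background is not given here.

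In the Ndn domain, Snrpn, which encodes a spliceosome protein, had 111, 63 and 97 counts in WT and 129, 529 and 0 in ING4-/-. Peg12 had 34, 121 and 84 counts in WT and 460, 76 and 295 in ING4-/-, and Magel2, a MAGE gene like Ndn, had 0 in every ING4-/- library. Peg12 thus had its ING4-/- counts in the order of Ndn, highest in LT-HSCs and lowest in ST-HSCs, and Snrpn did not. In the Peg3 domain, Usp29 had 476, 570 and 527 counts in WT and 1, 0 and 0 in ING4-/-, and Zim1 had 112, 130 and 78 in WT and 0 in ING4-/-. Copg2, a coat protein gene that overlaps Mest, had 680, 796 and 830 counts in WT and 2719, 3601 and 2737 in ING4-/-, where Mest had at most 2. Nespas, antisense to Gnas, had 16, 95 and 30 counts in WT and 0, 0 and 85 in ING4-/-. Nespas has 3143 exonic bases and Cdkn1c 2039, where the WT receptor-gene density was 18.1 to 22.7 counts per kb. Cdkn1c, the cell cycle inhibitor p57, had 47, 28 and 31 counts in WT and 1295, 1361 and 638 in ING4-/-, with MPPs lower than LT-HSCs in ING4-/- (log2 ratio -1.14, -1.28 to -0.9996).

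Genotypes were compared next, with the 3 populations of a genotype standing in for replicates, so the p-values measure the spread between populations. Of the 9 members that passed the count filter, 6 had an edgeR adjusted p under 0.05 with a change over 2-fold, the rule for a call. H19 did not pass the filter, and without it had a log2 fold change of 5.38 (SE 2.55, edgeR adjusted p = 0.0989), which rests on its count in ING4-/- MPPs. Ndn and Gnas were higher in ING4-/-, and Igf2r, Peg3, Plagl1 and Mest were lower. Across all 31001 genes 7.98% were called higher and 56.7% lower, with a median log2 fold change of -6.85, against -3.94 for the 9 members. Most tested genes were lower in ING4-/-, where the receptor-gene density of WT was not found. The 4 lower calls among 9 members stand beside that 56.7%, and the 2 higher calls beside the 7.98%.

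Ndn was higher in ING4-/- by a log2 fold change of 2.17 (SE 0.655, edgeR adjusted p = 0.0209). Mean levels were 157.0 ± 138.5 CPM in ING4-/- and 34.8 ± 14.2 in WT (SD, n = 3), and all 3 ING4-/- libraries (66.5 to 316.4 CPM) lay above all 3 WT libraries (26.5 to 51.2). Within a population the log2 ratio was 2.63 (2.497 to 2.76) for LT-HSCs, 1.32 (1.13 to 1.51) for ST-HSCs and 1.73 (1.55 to 1.92) for MPPs. These ratios depended on the scaling by more than their counting intervals. Scaled by total counts they were 2.17, 0.851 and 1.40, and with the background subtracted 2.90, 1.91 and 2.14. Without the WT ST-HSC library the adjusted p was 0.0823, without the WT MPP library 0.101, and after background subtraction 0.0782 with a log2 fold change of 1.76. With at least 10 counts required in every library it was 0.0846, without both MPP libraries 0.0822, and with population as a block 0.0369. Without the ING4-/- LT-HSC library the log2 fold change was 1.18 (adjusted p = 0.0304), still a call.

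Gnas was higher by 1.16 (SE 0.324, edgeR adjusted p = 0.0150). Levels were 44.9 to 63.1 CPM in ING4-/- and 20.8 to 25.1 in WT, with no overlap. Within LT-HSCs, ST-HSCs and MPPs the log2 ratio was 1.39, 0.94 and 1.11, and scaled by total counts 0.93, 0.48 and 0.78. The call held in 7 of 17 alternative settings. It was lost with population as a block (edgeR adjusted p = 0.0614) and with DESeq2 size factors (log2 fold change 0.80, adjusted p = 0.0932). DESeq2 itself gave 0.80, under the 2-fold needed. The 10-count minimum gave 0.65 (edgeR adjusted p = 0.263). Without the WT LT-HSC, ST-HSC or MPP library the adjusted p was 0.0638, 0.0749 and 0.0893. Without both libraries of these populations it was 0.0528, 0.0800 and 0.110. After background subtraction, which removed nearly all WT counts of Gnas, the log2 fold change was 6.54 (adjusted p = 0.0106). Gnas has an exonic GC content of 57.8%, outside the range of the receptor genes.

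Igf2r was lower in ING4-/-, with a log2 fold change of -4.77 (SE 1.51, edgeR adjusted p = 0.0256), with 22.9 to 28.9 CPM in WT and 0 to 1.76 in ING4-/-. With population as a block the adjusted p was 0.0518 (log2 fold change -5.70), and after background subtraction 0.259 (-3.41). Without the WT LT-HSC, ST-HSC or MPP library it was 0.0583, 0.0564 and 0.0690, with log2 fold changes of -4.71, -4.88 and -4.81. Peg3, Plagl1 and Mest had no more than 2 counts in any ING4-/- library. Peg3 was 939.1-fold lower over the 3 libraries of a genotype (167.2 to 37220, counting interval), Mest 239.0-fold lower (64.95 to 1992), and Plagl1 at least 300.8-fold lower, against a floor of 3 counts over the ING4-/- group. Their adjusted p-values in edgeR were 0.00066 for Peg3 and Plagl1 and 0.00129 for Mest, and 0.0369 for each with population as a block. Since their WT counts did not exceed the receptor-gene background by more than 1.05 times, no WT expression above that background was detectable for them, a reading that is less sure for Peg3 and Mest by their GC content, and they were not tested once it was subtracted.

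Meg3, Grb10 and Igf2 were not called. Meg3 had a log2 fold change of -3.94 (SE 1.53, edgeR adjusted p = 0.0554), and the call was gained without the ING4-/- LT-HSC (adjusted p = 0.0265) or ST-HSC library (0.00542). Grb10 had 0.32 (SE 0.253, adjusted p = 0.310), with overlapping levels of 74.3 to 85.8 CPM in WT and 74.7 to 122.6 in ING4-/-. Its sign depended on the processing, being -0.04 with DESeq2 size factors and -0.08 after background subtraction, and with upper-quartile scaling it was 0.91 (edgeR adjusted p = 0.0145), under the 2-fold needed for a call. Igf2 had 2.20 (SE 2.33, adjusted p = 0.446), which rests on its count in ING4-/- LT-HSCs, and with population as a block the fitted value was -3.44 (SE 3.29).

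**Figure D4:**
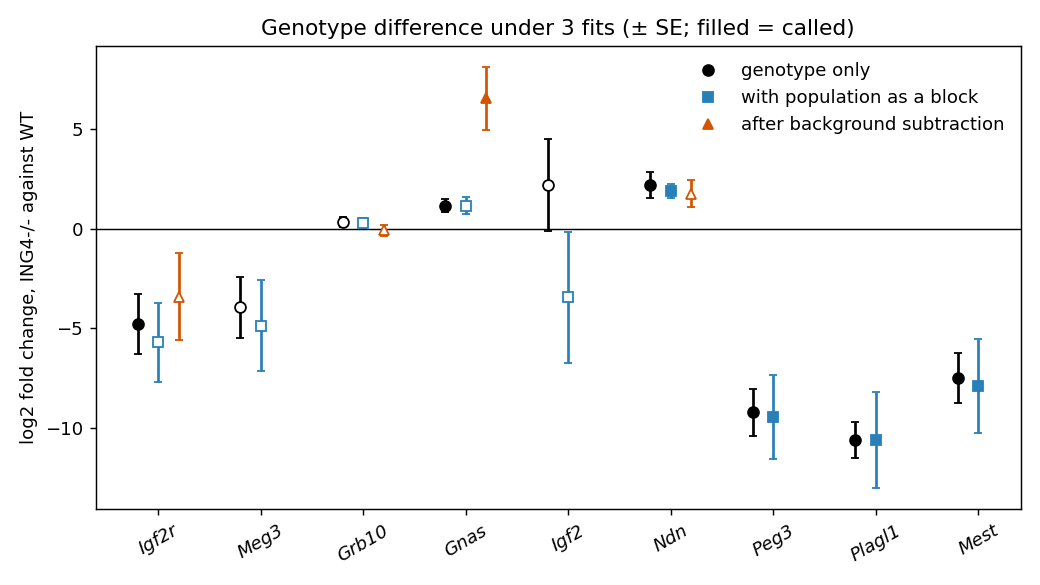
Log2 fold change of ING4-/- against WT with its SE (bars) for the 9 tested genes, from the fit with genotype only (circles), with population as a block (squares) and after background subtraction (triangles, absent where a gene was then not tested). Filled symbols were called. Ndn, Peg3, Plagl1 and Mest were called in both of the first fits.

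Of the 55 other imprinted genes 48 were tested between genotypes, of which 6 were called higher, 21 lower and 21 not called. Among all genes 7.98% were called higher and 56.7% lower. The median log2 fold change was -2.64 beside -6.85 for all genes. Those called higher were Cd81 (1.57, SE 0.230, edgeR adjusted p = 0.000798), a tetraspanin, Tspan32 (1.55, SE 0.162), Cdkn1c (3.23, SE 0.576, adjusted p = 0.00174), Commd1, Gatm and H13. At 22 of the 55, no ING4-/- library had more than 3 counts. Of the loci outside the members' domains, the highest mean levels in ING4-/- were those of H13 (35.4 CPM per kb), Gatm (34.8), Blcap (23.1), Commd1 (23.0) and Peg13 (14.8). None of the 48 was called between populations in edgeR, where 0% of all genes was called, and DESeq2 calls are not given for this list.

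Igf1r, the receptor that transmits IGF signals, had 703, 569 and 701 counts in WT and 1747, 344 and 1360 in ING4-/-, and its genotype difference of -0.93 (SE 0.565, edgeR adjusted p = 0.189) was not called. Its ING4-/- ST-HSC level was below that of LT-HSCs (log2 ratio -2.36, -2.53 to -2.19). Of 16 genes of the IGF axis, Igf1r included, 13 were tested, of which 1 was called higher and 6 lower, with a median of -2.37, beside 7.98% higher, 56.7% lower and a median of -6.85 among all genes. Igfbp4, a secreted IGF-binding protein, was higher by 1.54 (SE 0.351, adjusted p = 0.00577), with 887, 1411 and 2427 counts in WT and 12868, 13526 and 19157 in ING4-/-. The 6 lower genes were Igf2bp1, Igf2bp3, Igfbp5, Igfbp6, Irs1 and Pappa, each with no more than 2 counts in any ING4-/- library. Of 13 genes that maintain imprints 11 were tested and Trim28, the corepressor recruited to imprinted control regions, was called higher (1.23, SE 0.406, adjusted p = 0.0303). It had 414, 555 and 582 counts in WT and 1875, 4819 and 5560 in ING4-/-. Dnmt1, which copies DNA methylation at replication, was not called (-0.48, SE 0.424, adjusted p = 0.365), with 1791, 2407 and 2359 counts in WT and 2263, 7871 and 5662 in ING4-/-. None of these genes was called between populations in edgeR, where no gene was, and DESeq2 calls are not given for them.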

How the data were processed

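The authors deposited counts, whole numbers of reads per gene and library, on the mouse build mm10 (per the processing notes). The aligner, counting program, strand setting and annotation release are not given in the sources used here. Symbols, exonic lengths and GC content came from GENCODE on GRCm38, which holds 49056 of the 49315 identifiers and lacks 259. Genotypes (3 libraries each, 1 per population) and populations (2 libraries each, with genotype as a term) were compared in edgeR 4.0.16 (R 4.3.3) with TMM scaling, filterByExpr by genotype, the quasi-likelihood F test and Benjamini-Hochberg adjustment over 31001 genes. A call needed an adjusted p below 0.05 together with a log2 fold change beyond 1 in either direction. The SE was derived from the fold change and the root of its F statistic. CPM used TMM-scaled library sizes. Counting intervals were exact (Poisson or binomial, 95%). They and the floor of 3 counts, 0.0884 to 0.323 CPM, cover counting error only, since reads without molecular identifiers are not independent molecules.

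The 10 genes and all lists were chosen with earlier results of these data known. All members were named, with their neighbours in a domain, the 5 other loci highest per kb in ING4-/-, called genes of the IGF axis and imprint maintenance lists and Igf1r. Dnmt1 and single endothelial markers were named after their values were seen. Of the marker lists, 1 of 8 erythroid symbols was not found. The other lists had 4 higher and 1 lower of 7 tested erythroid genes, 2 higher and 0 lower of 7 granulocyte, 1 higher and 4 lower of 6 B cell, 0 higher and 3 lower of 6 T and NK cell, and 0 higher and 5 lower of 8 stromal markers between genotypes. None of the 6 endothelial markers was called. These numbers stand beside 7.98% called higher and 56.7% called lower among all genes.

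Deviations from the genotype mean correlated between the WT and ING4-/- library of a population (r = 0.143, 0.110 and 0.121 for LT-HSCs, ST-HSCs and MPPs over 9673 genes), so population pairs the libraries and a block was tried. Alternatives were DESeq2 1.42.0, its size factors, upper-quartile scaling, no filter, at least 10 counts in every library, background subtraction, no fold minimum, and leaving out libraries or populations.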

Additional observations from a re-analysis of the deposited data

Results flagged for a closer look

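For each pair below, both values came from 1 library per side, each with a counting interval on 1 side of 0, and the difference between the 2 was not tested. Meg3 had opposite MPP to ST-HSC ratios in the genotypes, -0.39 on the log2 scale in WT and at least 3.44 in ING4-/-, where the ST-HSC library had 0 counts. The WT counts of Meg3 were 0.401 to 0.440 times the receptor-gene background. Domain neighbours were taken where both directions exceeded 2-fold, and their WT counts are given without this background. Peg12 had an ST-HSC to LT-HSC ratio of 1.86 in WT and -2.61 in ING4-/-. Nespas had an MPP to ST-HSC ratio of -1.80 in WT and at least 4.72 in ING4-/-. Between genotypes, Peg12 had log2 ratios of ING4-/- to WT of 2.04 in LT-HSCs and -2.44 in ST-HSCs. Slc22a18 had -1.32 in LT-HSCs and 1.26 in ST-HSCs. Snrpn had -1.50 in LT-HSCs, 1.30 in ST-HSCs and, with the ING4-/- library at 0 counts, at most -6.75 in MPPs.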

How the results depend on the processing

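The count of 6 members called between genotypes became 1 after background subtraction, 0 of 3 tested with at least 10 counts in every library and 3 without both MPP libraries; it ranged from 3 to 7 when each library was left out, and was 3 without the WT ST-HSC or the WT MPP library. With population as a block, that is with the populations pairing the libraries, it was 4, losing Gnas and Igf2r, and the Igf2 value turned to -3.44. It was 6 with DESeq2, with its size factors (Meg3 in place of Gnas in both) and with upper-quartile scaling. Grb10 turned to -0.042 with DESeq2 size factors and with DESeq2, -0.19 with the 10-count minimum and -0.079 after background subtraction, and was 0.91 with upper-quartile scaling (adjusted p = 0.0145, not called). Members called between populations stayed at 0 in edgeR under every alternative, each library left out included, and DESeq2 gave 1 (Igf2) for MPPs and 1 (Igf2) for ST-HSCs against LT-HSCs. Gnas turned to 2.26 for MPPs against LT-HSCs after background subtraction, and its ST-HSC value ranged from -0.47 to 0.012 as libraries were left out. The causes of these changes were not tested. Genes called between genotypes numbered 20041, and 1739 with the 10-count minimum, 8756 after subtraction. The calls were 2475 higher and 17566 lower, 1342 and 18080 with DESeq2 size factors, and 4556 and 17093 with upper-quartile scaling. H19 was tested only without the filter. Depth limits what a count of 0 shows to levels above 0.0884 to 0.323 CPM. WT libraries had fewer counts, with a receptor-gene density equal to 22.6% to 33.4% of them, and in ING4-/- 19.6% of genes with 100 counts in a library had at most 1 in another, against 0.176% in WT.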
